A study of Mus musculus with 6 samples.

Results

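Rmrp, Rny1, Rny3, Vaultrc5 and Rn7s6 are the mouse genes for the RNA of RNase MRP, the Y RNAs Y1 and Y3, a vault RNA and a 7SL RNA. They were taken by gene symbol, as non-coding products of RNA polymerase III (Pol III) that are neither transfer RNA nor 5S ribosomal RNA, and 4 of the 5 had a row among the 1929 short transcripts of the table. Vaultrc5 had none and was not analysed here. The study asked whether lower Pol III activity changes the short RNAs of the gut. Short RNA of the superior duodenum, where the small intestine begins, was sequenced from female mice fasted overnight, 3 of them wild-type C57Bl/6N and 3 heterozygous for C57BL/6N-Polr3b<em7(IMPC)Tcp>/Tcp (Polr3b+/-). This allele carries an insertion made with Cas9 that shifts the reading frame of Polr3b, the second largest subunit of Pol III, and leaves 1 intact copy in every cell of the mouse. The wild-type mice came from matings of wild-type parents and the heterozygous mice from matings of a heterozygous with a wild-type parent, so litter and genotype cannot be told apart. The age of the mice at sampling was not given in the sources used here, and the genotype of each library was not checked against the Polr3b messenger RNA, which was not analysed here. The columns of the heterozygous libraries are headed with a code that matches an older name of another Pol III subunit, Polr3d, rather than Polr3b. They were assigned to this group because the labels give no other besides the wild type, and each difference between genotypes below rests on that assignment. The code gives no mouse, so heterozygous library 1, 2 and 3 are named by column order.

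RNase MRP is a ribonucleoprotein that cleaves the precursor of ribosomal RNA within an internal transcribed spacer on the way to the mature 5.8S RNA, and Rmrp is its RNA subunit. Y RNAs are short hairpin RNAs bound by the Ro60 protein and linked to RNA quality control and DNA replication, vault RNAs are parts of the large cytoplasmic vault particle, and 7SL RNA is the scaffold of the signal recognition particle, which brings ribosomes making secreted proteins to the endoplasmic reticulum. All are made by Pol III, the Y and RNase MRP RNAs from promoters upstream of the gene and the vault and 7SL RNAs from promoters with elements inside it, and Pol III stops at a run of T in the coding strand.

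The sequences below show what a read had to match to be counted for Rmrp, Rny1 and Rny3. They are the transcript models of GENCODE vM21 on GRCm38, matched by transcript ID, whereas the authors' index used GRCm39 and later versions of the same transcripts. In Rmrp the capitals mark the 271 bases that a shorter model of the gene also covers, with 5 further bases at each end. In Rny1 and Rny3 they mark the 3 runs of at least 8 bases that both RNAs share.
Rmrp: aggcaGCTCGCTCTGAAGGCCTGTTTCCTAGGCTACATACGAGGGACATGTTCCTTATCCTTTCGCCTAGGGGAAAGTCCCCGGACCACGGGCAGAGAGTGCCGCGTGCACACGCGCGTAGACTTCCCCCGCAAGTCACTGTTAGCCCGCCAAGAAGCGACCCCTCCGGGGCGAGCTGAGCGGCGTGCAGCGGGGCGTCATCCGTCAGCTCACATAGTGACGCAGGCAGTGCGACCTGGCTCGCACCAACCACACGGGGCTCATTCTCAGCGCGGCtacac
Rny1: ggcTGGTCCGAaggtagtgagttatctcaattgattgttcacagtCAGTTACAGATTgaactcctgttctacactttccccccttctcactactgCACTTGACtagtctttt
Rny3: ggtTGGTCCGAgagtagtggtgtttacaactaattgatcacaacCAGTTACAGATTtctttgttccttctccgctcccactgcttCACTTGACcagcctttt

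Rmrp (ENSMUSG00000115420) lies at chr4:43492783-43493063 on the minus strand of GRCm38, is 281 bases long with 63.7% G and C, and overlaps an exon of Ccdc107 on the opposite strand. Whether reads were counted by strand was not given in the sources used here, so reads of Rmrp and of this exon may not be told apart. Rny3 lies at chr6:47781624-47781725 on the plus strand and Rny1 at chr6:47788069-47788180 on the minus strand. They are 102 and 112 bases long, and 6343 bases separate them, with the pseudogene Rpl31-ps7 in between and no annotated gene overlapping either. Over their aligned bases the 2 Y RNAs were 71.4% identical, and the shared runs lie near both ends, which pair with each other in Y RNAs, and in the middle. The letters TTTT stood within the last 10 bases of Rny1 and Rny3 and not of Rmrp or Rn7s6, against 78 of the 1356 matched sequences of the table (5.75%). The RNA had been selected for lengths under 200 nucleotides, which Rny1 and Rny3 meet and which the annotated Rmrp and Rn7s6, at 281 and 291 bases, do not. For the latter 2 the counts may therefore stem from fragments, which the table cannot show.

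Library totals ran from 1719869 to 4078753 estimated counts in the wild type and from 3076652 to 9771623 in the heterozygotes. A single transcript took 47.5% of wild-type library 1, the shallowest, and 21.1% to 37.7% of each other library. The hairpins of the intestinal epithelial microRNAs Mir192, Mir194-1, Mir194-2 and Mir215 together had 7 to 126 counts per library, and those of liver (Mir122) and pancreas (Mir216a, Mir217) at most 1 each. Mir143 and Mir145a, hairpins of smooth muscle, had 3 to 81 and 0 to 3 counts. Heterozygous library 2, the deepest, had 81 for Mir143 beside 74 for Mir192. It also held the highest normalised Rmrp count, although by share of the library wild-type library 3 was higher. The hairpin counts are not scaled to depth. Mir142 and Mir223, hairpins of blood cells, reached at most 33 and 17 counts. The part of cell makeup in the values below was not tested. In bulk tissue, fewer cells of a type and less RNA per cell cannot be told apart.

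None of the 4 RNAs passed the test for differential expression between the genotypes when all libraries were used. Rmrp, Rny1 and Rny3 lay within 1.13-fold between the group averages fitted by DESeq2. Rn7s6, with 1 to 129 counts per library, was too uneven between libraries for the test with its default outlier filter to return a p-value. Among the 3 members with an adjusted p-value, 0 were called at a false discovery rate of 10% (DESeq2, Benjamini-Hochberg adjustment over 734 transcripts), and 0 had an unadjusted p under 0.05. By the same test 17 of the 734 transcripts (2.32%) were called in either direction and 52 had an unadjusted p under 0.05. With edgeR, 0 of 577 transcripts (0%) were called, with 19 at an unadjusted p under 0.05 and a smallest adjusted p of 0.696. The median log2 difference, heterozygous over wild type, was 0.05 over the 4 members and -0.13 over all transcripts.

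**Figure D1:**
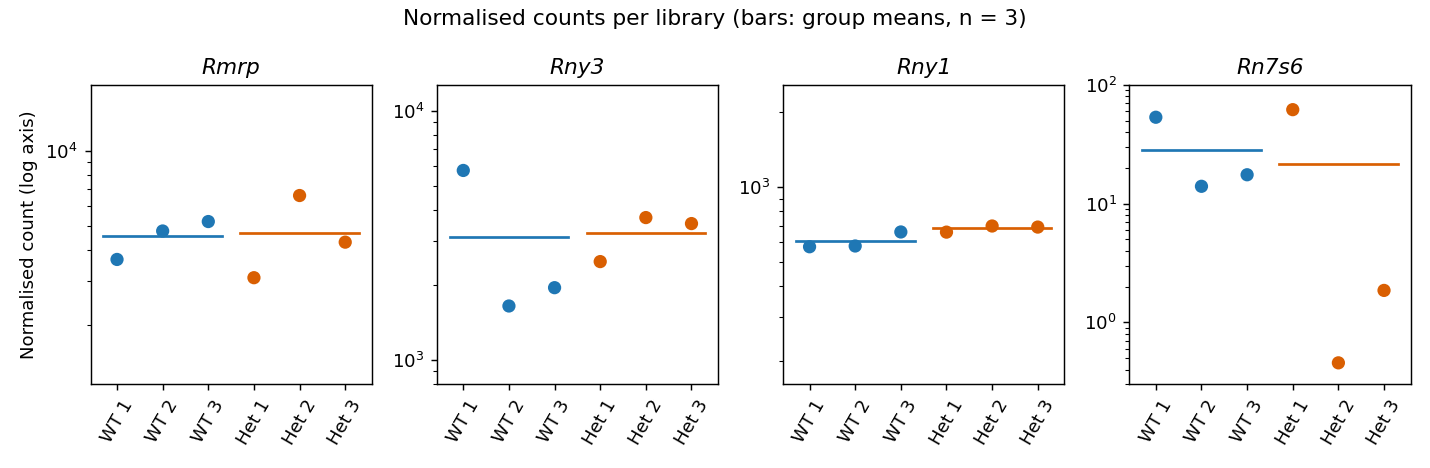
Normalised counts (estimated count divided by the library's size factor, log axis) of Rmrp, Rny3, Rny1 and Rn7s6 in the 3 wild-type (WT, blue) and 3 heterozygous (Het, orange) libraries, with horizontal bars at the group means. The groups overlap in all 4 panels, Rny1 stays between 576 and 698, and Rn7s6 falls to 0.456 and 1.86 in heterozygous libraries 2 and 3.

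Rmrp, the RNA on which RNase MRP is built, had 1231, 5437 and 6225 counts in wild-type libraries 1 to 3 and 6431, 14490 and 2309 in heterozygous libraries 1 to 3. After division by the size factors the values were 3654, 4756 and 5190.4 in the wild type and 3086, 6605 and 4289 in the heterozygotes. The lowest and the highest of the 6 were both heterozygous, and the wild-type values lay between them. The fitted log2 difference was 0.04 (SE 0.51, adjusted p = 0.9999, DESeq2 with Benjamini-Hochberg adjustment), with a 95% interval from -0.96 to 1.04, that is from 0.514-fold to 2.06-fold. With 3 libraries per genotype, the fit does not exclude a difference in Rmrp inside these bounds. The smallest detectable difference was not calculated. As a share of the library Rmrp took 716, 1333 and 1677 CPM (counts per 1000000 counts of the library) in the wild type and 725, 1483 and 750.5 in the heterozygotes. These shares also overlapped, with 1 low and 2 high wild-type libraries against 2 low and 1 high heterozygous library. Their counting error was small beside that spread, since the 95% Wilson interval of the shallowest library ran from 677 to 757 CPM.

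Rny1, the gene of the Y1 RNA, had 194, 663 and 792 counts in the wild type and 1374, 1531 and 372 in the heterozygotes. Its normalised counts were 576, 579.9 and 660.4 in the wild type and 659, 698 and 691 in the heterozygotes (605 ± 47.7 against 683 ± 20.5, SD, n = 3). Heterozygous library 1 lay just under wild-type library 3, and the other 2 heterozygous libraries lay above all wild-type ones. The fitted log2 difference was 0.17 (SE 0.30, 95% interval -0.42 to 0.76, 0.747-fold to 1.70-fold, DESeq2 adjusted p = 0.9999), the narrowest interval of the 4 RNAs. On the share scale, where each value is divided by the library total, the order changed. Rny1 then took 113, 163 and 213 CPM in the wild type and 155, 157 and 121 in the heterozygotes, and the wild-type libraries held both extremes.

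Rny1 was also the steadiest of the 305 named transcripts with a mean normalised count of at least 50, a feature noticed after its values were seen. Its root mean square (RMS) deviation from its own mean over the 6 libraries was 0.11 on the log2 scale, and the highest value was 1.21 times the lowest. The median transcript deviated by 0.49. Rmrp, at 0.35, had 73 transcripts below it, and Rny3, at 0.61, had 199. The size factors were themselves medians over transcripts, Rny1 included, and the rank of Rny1 moved with the scaling. With TMM factors 4 transcripts were steadier, with library totals 9, and with size factors taken over snoRNAs and scaRNAs 20.

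**Figure D2:**
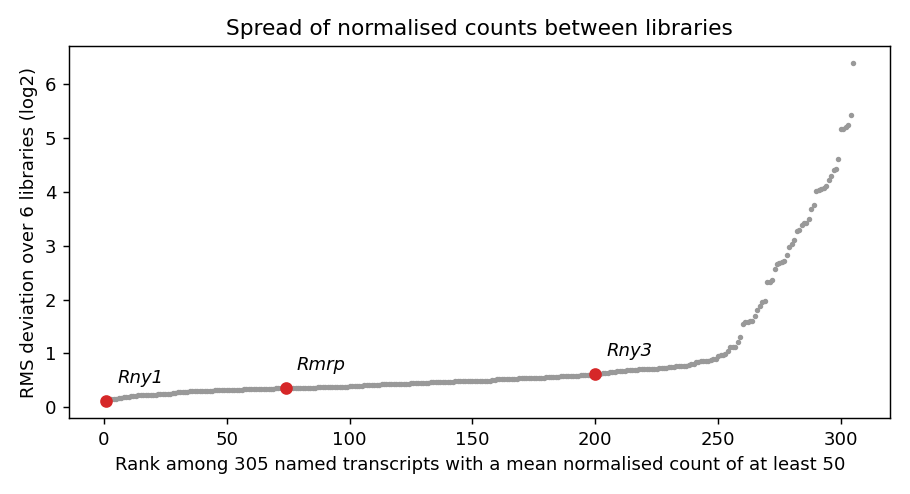
RMS deviation of log2 normalised counts over the 6 libraries (vertical axis) for 305 named transcripts with a mean of at least 50, ranked from the steadiest to the most uneven (horizontal axis). Rny1 is at the far left at 0.11, Rmrp at 0.35 has 73 transcripts to its left and Rny3 at 0.61 has 199.

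Rny3, the gene of the Y3 RNA, had 1940, 1877 and 2333 counts in the wild type and 5161, 8167 and 1896 in the heterozygotes. Normalised counts were 5758, 1642 and 1945 in the wild type and 2477, 3723 and 3521 in the heterozygotes. Wild-type library 1 was the highest of all 6, and the remaining 2 wild-type libraries were the lowest. Over all libraries the log2 difference was 0.06 (SE 0.71, 95% interval -1.34 to 1.45, DESeq2 adjusted p = 0.9999). Without wild-type library 1 it was 0.87 (SE 0.44, unadjusted p = 0.0483), with a DESeq2 adjusted p of 0.343 after Benjamini-Hochberg adjustment, and edgeR gave 0.81 with an adjusted p of 0.453. Wild-type library 1 was the shallowest and the one in which a single transcript took the largest share, and the part of either in its Rny3 value was not tested. The share of Rny3 was 1128 CPM in that library, against 460.2 and 628 in the other wild-type libraries and 582, 836 and 616 in the heterozygous ones. Rny1, from the neighbouring gene, was not raised there, at 113 CPM, its lowest share of the 6.

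Rn7s6 had 18, 16 and 21 counts in the wild type and 129, 1 and 1 in the heterozygotes. In CPM, with 95% Wilson intervals, these were 10.5 (6.62 to 16.5), 3.92 (2.41 to 6.37) and 5.66 (3.70 to 8.65) in the wild type. Heterozygous library 1 held 14.5 (12.2 to 17.3), above every wild-type library, while libraries 2 and 3 held 0.102 (0.0181 to 0.580) and 0.325 (0.0574 to 1.84), below every wild-type library. The intervals cover counting error only, and those of the 2 low libraries did not reach any wild-type interval. Over all libraries the fitted log2 difference was -0.37 (SE 1.64, 95% interval -3.59 to 2.84), and DESeq2 gave no p-value because a single library weighed too heavily on the estimate. With edgeR, which applies no such filter, it was -0.37 with an adjusted p of 0.9997 (Benjamini-Hochberg).

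A single heterozygous library thus set the Rn7s6 result. Without heterozygous library 1 Rn7s6 was lower in the heterozygotes by DESeq2, with a log2 difference of -4.98 (SE 1.51) and an adjusted p of 0.0895 (Benjamini-Hochberg), among 11 of 1267 transcripts called lower in that fit (0.868%). The edgeR test without the same library gave -4.72 with an unadjusted p of 0.0152 and an adjusted p of 0.999, so the call was not shared between the tools. Pooled, 55 of 9510857 counts in the wild type stood against 2 of 12848275 in heterozygous libraries 2 and 3, a ratio of 37.1 with an exact 95% counting interval from 9.81 to 314. This interval compares these libraries, not the genotypes, and the library left out had the highest value of all 6.

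Reads of 7SL-like RNAs could be divided among several rows, so rows with a sequence like Rn7s6 were examined beside it. There were 6 rows that shared 80% or more of their aligned bases with it across 50% or more of either sequence, namely Gm26461, Gm24514, Gm24105, Gm24812, Gm22701 and Gm25687. Gm24514, 93.5% identical to Rn7s6 over the aligned bases, had 18, 21 and 30 counts in the wild type and 84, 3 and 4 in the heterozygotes. Like Rn7s6 it was lower in heterozygous libraries 2 and 3 than in any other library. After division by the size factors, however, Gm24514 was highest in wild-type library 1, at 53.4 against 40.3 in heterozygous library 1. Gm24105, with 90.2% identity, had 20, 4 and 2 counts in the wild type and 4, 1 and 5 in the heterozygotes, and Gm26461, with 95.025%, had 4, 0 and 51 against 0, 0 and 1. By normalised count Gm24105 and Gm26461 were not highest in heterozygous library 1 either. Each of the remaining 3 rows had at most 1 count in any library. Added together, the 7 rows came to 60, 42 and 105 counts in the wild type and 219, 5 and 12 in the heterozygotes, or 34.9, 10.3 and 28.3 against 24.7, 0.512 and 3.90 CPM. On the share scale heterozygous libraries 2 and 3 again lay below every wild-type library, while heterozygous library 1 was within the wild-type range. The summed log2 difference was -1.21 (SE 1.32, DESeq2 adjusted p = 0.9999) over all libraries and -3.09 (SE 1.31, unadjusted p = 0.0181, adjusted p = 0.848, Benjamini-Hochberg) without heterozygous library 1. The call for Rn7s6 on its own was thus not kept for the sum. The 7SL genes Rn7s1 and Rn7s2, each 98.6% identical to Rn7s6 over 214 aligned bases, had no row. The sum therefore does not cover all 7SL RNA, and how reads were divided between those genes and these rows was not tested.

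**Figure D3:**
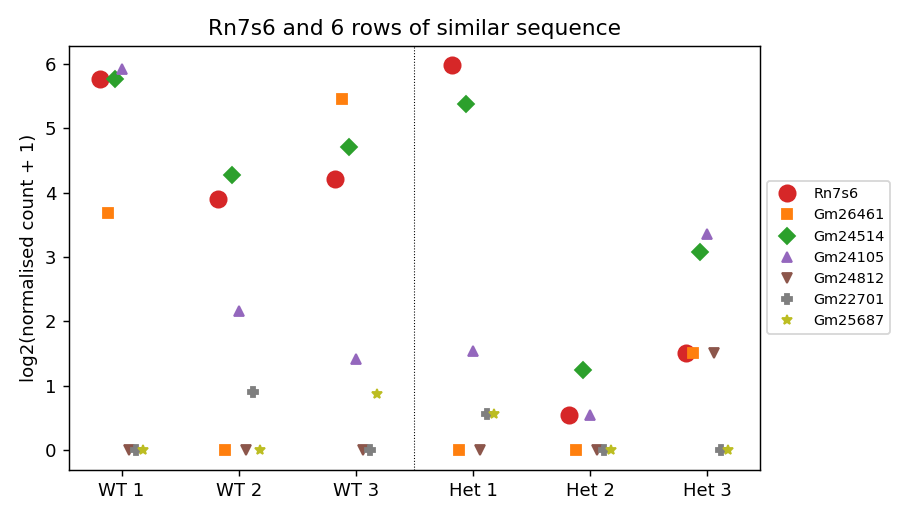
log2(normalised count + 1) of Rn7s6 (red circles) and of 6 rows of similar sequence (other symbols) in each library, wild type (WT) left and heterozygous (Het) right of the dotted line. Rn7s6 and Gm24514 are both lower in heterozygous libraries 2 and 3 than in any other library. Rn7s6 is highest in heterozygous library 1, Gm24514 and Gm24105 in wild-type library 1 and Gm26461 in wild-type library 3.

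Y1 has a close relative in the table as well. Gm26168 was 92.7% identical to Rny1 over 97.3% of its length and had 0, 1 and 0 counts in the wild type and 4, 4 and 0 in the heterozygotes. Adding it to Rny1 moved no value of Rny1 by more than 4 counts. No row was as like Rmrp or Rny3 as this one was to Rny1 (80% identity across 80% of either sequence).

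A share of the library total needs no size factor, so the 4 RNAs were also compared as shares. The mean log2 share was lower in the heterozygotes by 0.33 for Rmrp, 0.14 for Rny1, 0.04 for Rny3 and 2.97 for Rn7s6, with exact p = 0.7, 0.8, 0.8 and 0.4 and 0.8 for each after Benjamini-Hochberg adjustment over the 4 (two-sided exact permutation test, n = 3 per group). With 3 against 3 libraries the smallest p this test allows is 0.1. The mean of logs for Rn7s6 was set by heterozygous libraries 2 and 3, with 1 count each. Its mean share without logs was 6.68 CPM in the wild type and 4.99 CPM in the heterozygotes. Together the 4 RNAs made up 0.197%, 0.196% and 0.252% of the wild-type libraries and 0.148%, 0.248% and 0.149% of the heterozygous ones. The sums overlapped, with heterozygous library 2 at the level of the highest wild-type library. Rny3 supplied 57.3% of that sum in wild-type library 1, 23.5% and 24.9% in the other wild-type libraries and 39.4%, 33.8% and 41.4% in the heterozygous ones.

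Ratios of 2 members inside a library do not depend on any scaling between libraries. Rmrp counts stood to Rny1 counts as 6.35, 8.20 and 7.86 to 1 in the wild type and as 4.68, 9.46 and 6.21 to 1 in the heterozygotes. The mean log2 ratio was lower in the heterozygotes by 0.19, and the groups overlapped (exact permutation test, two-sided, p = 0.6, n = 3 per group). For Rmrp over Rny3 the ratios were 0.635, 2.90 and 2.67 in the wild type against 1.25, 1.77 and 1.22 in the heterozygotes, and for Rny1 over Rny3 they were 0.1, 0.353 and 0.339 against 0.266, 0.187 and 0.196. In both, the heterozygous libraries lay between wild-type library 1 and the other 2 wild-type libraries, and the log2 differences of -0.29 and -0.10 had exact permutation p = 0.8 and 1. The 3 ratios over Rn7s6 were higher in the heterozygotes by 2.29 (Rmrp), 2.48 (Rny1) and 2.58 (Rny3) on the log2 scale, with exact permutation p = 0.5, 0.3 and 0.4. After Benjamini-Hochberg adjustment over the 6 pairs every p was 0.9 or above. The higher group means over Rn7s6 came from heterozygous libraries 2 and 3, which had 1 Rn7s6 count each. Both lay above every wild-type library in all 3 ratios. In heterozygous library 1 the log2 ratios (0.5 added to each count) were 5.63 (Rmrp), 3.41 (Rny1) and 5.32 (Rny3). The wild-type libraries ran from 6.06 to 8.36, from 3.39 to 5.33 and from 6.71 to 6.83.

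**Figure D4:**
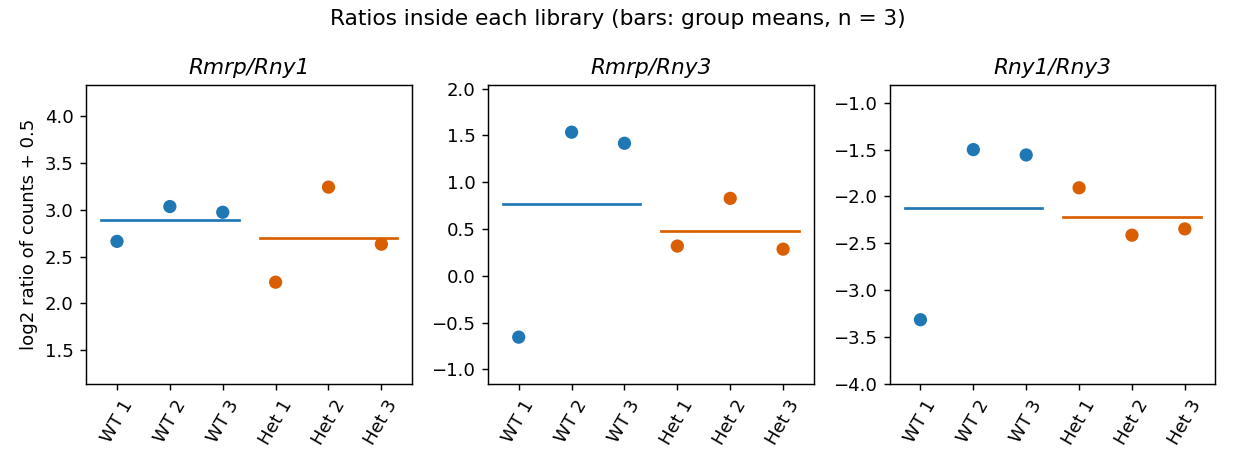
log2 ratios of counts (0.5 added to each count) of Rmrp over Rny1, Rmrp over Rny3 and Rny1 over Rny3 in each wild-type (WT, blue) and heterozygous (Het, orange) library, with bars at the group means. The 2 ratios over Rny3 are lowest in wild-type library 1, at -0.66 and -3.32, and highest in wild-type libraries 2 and 3.

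Levels of the 4 RNAs were set against each other as CPM per kilobase of transcript. The annotated Rmrp and Rn7s6 are longer than the 200 nucleotides of the size selection. Division by their full length may therefore not make them comparable with the Y RNAs, and the order below describes the counts only. Rny3 was highest on average, at 7244 ± 3405 in the wild type and 6647 ± 1351 in the heterozygotes, followed by Rmrp at 4419.5 ± 1733 and 3509 ± 1532 and by Rny1 at 1454 ± 449 and 1287 ± 180.0 (SD, n = 3). Rn7s6 was lowest, at 23.0 ± 11.6 and 17.1 ± 28.4. Rny3 exceeded Rmrp per kilobase in 5 of the 6 libraries, with ratios of 0.951 to 4.34. In the wild type the ranges of these neighbours overlapped, at 4512 to 11059 for Rny3 and 2547 to 5968 for Rmrp, whereas in the heterozygotes, at 5705 to 8194 and 2580.2 to 5277, they did not. By counts that are not divided by length the order was the opposite, with Rmrp above Rny3 in 5 of 6 libraries. Rmrp exceeded Rny1 per kilobase in 6 of 6 libraries, by 1.87 to 3.77 times, and Rny1 exceeded Rn7s6 in 6 of 6, by 27.7 to 3978 times.

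**Figure D5:**
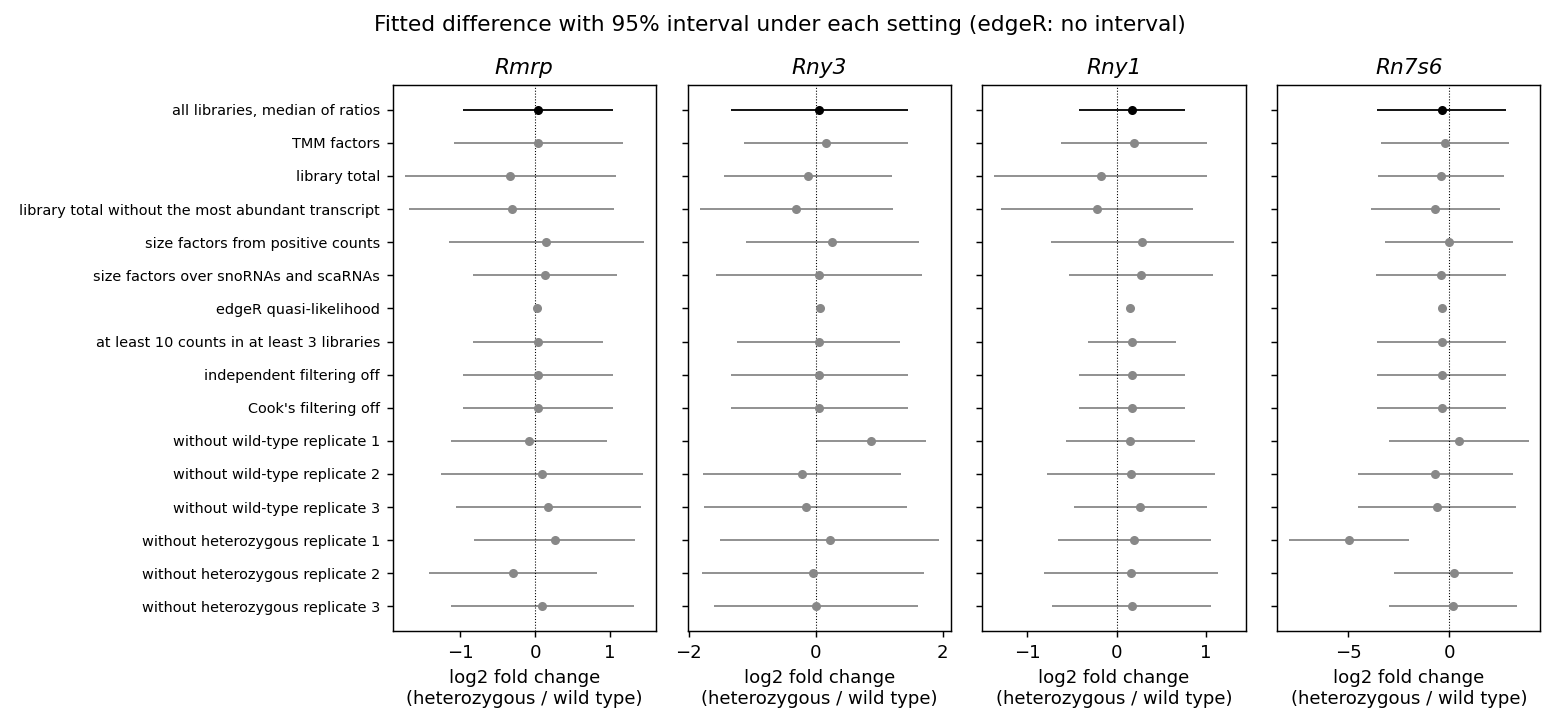
Fitted log2 fold changes, heterozygous over wild type (horizontal axes, which differ in range), of Rmrp, Rny3, Rny1 and Rn7s6 under 16 settings (vertical axis), with 95% intervals for the DESeq2 fits. All intervals of Rmrp and Rny1 include 0, that of Rny3 excludes 0 only without wild-type library 1, at 0.87, and that of Rn7s6 only without heterozygous library 1, at -4.98.

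Among the other RNAs of Pol III that were looked for (Rn7sk, Rpph1, Rnu6, Rnu6atac, Bc1, Rn7s1 and Rn7s2), 1 of 7 had a row, Bc1, an RNA known for its role in translation at synapses. It had 80, 174 and 215 counts in the wild type and 539, 1752 and 67 in the heterozygotes, with a log2 difference of 1.06 (SE 0.85, DESeq2 adjusted p = 0.9999). The remaining 6 were not analysed here. Heterozygous library 2, which held the highest normalised Rmrp count, also held the highest Bc1 value, at 799 normalised counts against 124 to 259 in the other 5 libraries.

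RNase MRP acts in the processing of pre-ribosomal RNA, so the small nucleolar RNAs of pre-rRNA cleavage, which Pol II makes, were examined beside Rmrp. Of 15 looked for, 9 had a row, and 0 of the 9 were called in either direction, against 17 of 734 transcripts (2.32%). The log2 difference was above 0 for 1 and below 0 for 8, with a median of -0.44 (-0.13 over all transcripts). The differences ran from -1.04 to 0.50, with SEs of up to 3.72. Whether a lean below 0 is particular to these RNAs was not tested. Snord118 (U8), needed for the 5.8S and 28S RNAs, was fitted at -0.44 (SE 0.44), and Snord22 (U22), needed for the 18S RNA, at -0.50 (SE 0.38), each with a DESeq2 adjusted p of 0.9999. Rnu3a (U3), needed for the first cleavages, had 10748 counts in wild-type library 3, 10801 and 4170 in heterozygous libraries 2 and 3, and was listed at 0 in the other 3 libraries. The related U3 genes Rnu3b1, Rnu3b2, Rnu3b3 and Rnu3b4 were not analysed here, and how reads were divided among these copies was not tested.

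The transcripts whose pattern over the 6 libraries was most like each member were found by the RMS distance between log2(normalised count + 1) values, each centred on its own mean, over the same 305 named transcripts. For Rmrp these were Gm25296, Snord38a and Gm22486, all snoRNAs, at distances of 0.11, 0.15 and 0.17 (median over all 0.56). Like Rmrp they were highest in heterozygous library 2 and lowest in heterozygous library 1. For Rny1 they were the snoRNAs Gm26448 and Gm22154 and the snRNA Gm23804, at 0.11, 0.13 and 0.15 (median 0.51). Rny3 had less close ones, Snord32a, Gm12895 and Gm23442, at 0.26, 0.27 and 0.29 (median 0.93), and Rny1 was at 0.62 from it. The nearest to Rn7s6 were the snRNAs Gm25587 and Gm25189, at 1.16 and 1.27, and the snoRNA Snora47, at 1.63 (median 2.15). Gm25587 had 219.6 and 320.1 normalised counts in wild-type library 1 and heterozygous library 1 and 21.0 to 30.0 in the other 4 libraries, so its high libraries were the same 2 as those of Rn7s6. These distances describe 6 libraries that also set the size factors and carry no test.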

How the data were processed

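Short RNA from the duodenum of 6 female mice (3 wild-type, 3 Polr3b+/-) was extracted with Trizol, size-selected, demethylated and sequenced in paired ends. Per the sources, the authors used Cutadapt for trimming and Salmon for quantification on a decoy-aware GRCm39 index that held non-coding RNAs too, kept sequences shorter than 300 bases, and deposited estimated counts (expected counts, given as whole numbers) per transcript. Reads matching several transcripts are shared out by the estimate, so similar rows are not independent. The table lists 1929 transcripts: 1742 Ensembl IDs, 1356 of them matched to GENCODE vM21, and 187 tRNA features. The 386 unmatched IDs stayed in the fits unnamed.

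Counts as deposited were fitted with DESeq2 1.42.0 in R 4.3.3 (genotype only, Wald test, median-of-ratios size factors, default independent and Cook's filtering, Benjamini-Hochberg, adjusted p under 0.1, the design of the study). edgeR 4.0.16 (quasi-likelihood test, TMM, filterByExpr) was the other tool. Both were also run on simulated data, with changes much larger than the differences fitted here for Rmrp, Rny1 and Rny3. That run does not bear on differences of this size. Shares (nothing added to the counts) and ratios (0.5 added to each count) were compared with two-sided exact permutation tests (scipy 1.17.1). Wilson intervals are at 95% and, like the counting ratio, cover counting error only. Depth ranged from 1719869 to 9771623 counts, and the upper limit of a share behind a count of 0 (3 counts) was 0.000174% in the shallowest library and 3.07e-05% in the deepest. Similar rows were found with BLAST+ 2.17.0.

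All members, the listed Pol III RNAs with a row, up to 3 pre-rRNA cleavage RNAs of highest mean count, similar rows and the 3 nearest transcripts in pattern (mean normalised count of at least 50) are named. Members and lists were chosen with earlier results of these data known. The 50% length cover for 7SL-like rows, their sums, the steadiness of Rny1 and the edgeR fits without a library were chosen after seeing the data. The sequence and position of Rn7s6 are not reported here. Alternatives were other scalings, filters and denominators and leaving out each library.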

Additional observations from a re-analysis of the deposited data

How the results depend on the processing

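No paired analysis was possible because the heterozygous columns carry no mouse number. The alternatives were planned, except the sums of 7SL-like rows and the edgeR fits without a library, which were chosen after seeing the data. No scaling, filter, tool or threshold over all libraries brought a member past its threshold, but the direction of small differences moved. With library totals the log2 differences were -0.33 (Rmrp), -0.18 (Rny1) and -0.12 (Rny3), and with totals without the most abundant transcript -0.32, -0.22 and -0.30, where the median of all transcripts was itself -0.45 and -0.53. edgeR without wild-type library 1 gave -0.13 for Rmrp and 0.40 for Rn7s6. Log2 share differences were 0.041 (Rny1) and 0.14 (Rny3) against totals without tRNA. Against snoRNAs and scaRNAs they were 0.15 (Rmrp), 0.34 (Rny1, exact permutation p = 0.1) and 0.44 (Rny3). This p for Rny1 is the smallest the test allows, and with that denominator every heterozygous library lay above every wild-type one. Against library totals Rny1 was at -0.14 (exact permutation p = 0.8). Rny3 over Rmrp averaged 0.84 per base and -0.62 without division by length (log2). The called transcripts, 17 in all, were 0 with edgeR and 7 with at least 10 counts in 3 libraries. Leaving out 1 library at a time gave 7 to 68 called transcripts and 0 to 1 called members (Rn7s6, without heterozygous library 1). The differences then ran from -0.30 to 0.26 (Rmrp), 0.15 to 0.27 (Rny1), -0.22 to 0.87 (Rny3) and -4.98 to 0.47 (Rn7s6), the shares from -0.68 to -0.07, -0.38 to 0.080, -0.33 to 0.32 and -5.07 to -1.50. Ratios ran from -0.46 to 0.047 (Rmrp over Rny1), -0.999 to 0.10 (Rmrp over Rny3), -0.69 to 0.21 (Rny1 over Rny3), and over Rn7s6 from 0.58 to 4.38 (Rmrp), 1.04 to 4.33 (Rny1) and 1.04 to 4.59 (Rny3). The cause of these shifts was not tested. No row was at least 95% identical to a member over at least 95% of both lengths (Gm26461 fell short in length), so that sum was not run. Rn7s6 had 1 count in each of 2 libraries, 1 of them the deepest of all.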
